A study of Caenorhabditis elegans with 6 samples.

Results

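Aminoacyl-tRNA synthetases were followed in whole Caenorhabditis elegans exposed to GYY4137, which gives off hydrogen sulfide (H2S) over a long time, and in control worms. They were taken as all probe sets of the array whose gene symbol is a single letter for the amino acid followed by ars and the suffix -1 or -2. This gave 32 of 17118 genes with a probe set of their own, on 44 of 22548 probe sets: 26 probe sets for 20 genes with the suffix -1 and 18 probe sets for 12 genes with the suffix -2. A probe set shared by fars-2 and another gene was left out, and nars-2 was not analysed here.

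The GYY4137 group held 3 arrays and the control group 3 arrays. All 6 are labelled as whole animals of the wild-type strain N2 (Bristol) at the L4 larval stage, and no allele or transgene is named. The growth protocol does not differ between the groups' labels and gives 100 uM GYY4137 for 48 h in liquid and then 12 h on plates; what the controls were given in its place is not stated in the sources used here. RNA was measured on Affymetrix arrays, and values are log2 after GCRMA, in which a step of 1 is a doubling. A probe set was tested when it lay above 4, the floor used here for a measurable level, on 3 or more of the 6 arrays.

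Between 7723 and 8050 probe sets lay above the floor on each array. GYY4137 replicate 3 stood apart: across tested probe sets, Pearson's r was 0.940 to 0.965 between it and the other 5 arrays, and 0.979 to 0.993 within those 5. Where a tested probe set's difference is given below and this array moved it by more than 0.1, the difference without it is also given. Fixed markers of intestine, body wall muscle, pharynx, neurons, hypodermis, germline, oocytes, yolk and sperm all had tested probe sets. Oocyte and eggshell markers passed the floor on 8 of 8 probe sets and yolk markers on 8 of 8, which adults express. Their control means included 11.9 for vit-6 (173411_s_at), 9.12 for rme-2 and 9.08 for egg-1. With such levels the L4 label may not give the stage at collection, and the stage was not tested. In whole worms, fewer cells of a type and less RNA per cell cannot be told apart.

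Aminoacyl-tRNA synthetases join each amino acid to its matching tRNA, the step that fixes the genetic code in translation. Animals have a set for the cytosol and a set for mitochondria, all encoded in the nucleus, and some genes make both forms. The enzymes fall into structural classes I and II, which build the same bond on unrelated folds, and in mammals several of the cytosolic ones are held in a large multi-synthetase complex. Uncharged tRNA, which builds up when charging fails, activates the kinase GCN-2 and slows translation.

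In the worm the suffix -1 mostly marks the cytosolic enzyme and -2 the mitochondrial one, and the groups below follow the suffix. There are exceptions. Aars-2 is the cytosolic alanine enzyme and aars-1 the mitochondrial one; vars-1 is the mitochondrial valine enzyme, while the cytosolic one is glp-4, whose name lies outside the pattern. Cars-2 is listed as a pseudogene in the RefSeq gene table. Whether yars-1 and yars-2 follow the suffix was not settled here. The genes gars-1, hars-1, kars-1, nars-1, tars-1, qars-1, cars-1, vars-1 and wars-1 had no intact -2 partner among the members.

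No synthetase passed the test. Of the 44 probe sets, 31 were tested, for 26 genes, and 0 had a limma adjusted p under 0.05, while 1.50% of all 8053 tested probe sets did (121). An unadjusted p under 0.05 was reached by 2 of the 31 (6.45%), beside 17.7% of all tested probe sets. For 3 of the 31 (9.68%) all GYY4137 arrays lay on the same side of all control arrays, beside 29.0% of all tested probe sets. These shares lay below the share over the whole array. The size of the difference, without its sign, had a median of 0.08 over the synthetases and 0.19 over all tested probe sets, and 3 synthetase probe sets (9.68%) differed by more than 0.3, beside 30.8% of all.

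The median signed difference, GYY4137 minus control, was -0.01 over the 22 tested probe sets with the suffix -1 and -0.03 over the 9 with the suffix -2. Over all tested probe sets it was -0.04. Of the -1 probe sets 10 lay above control and 12 below, and of the -2 probe sets 4 above and 5 below. The 95% interval of the difference stayed within a 1.5-fold change in either direction for 20 of 22 probe sets with the suffix -1 and 6 of 9 with the suffix -2.

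**Figure D1:**
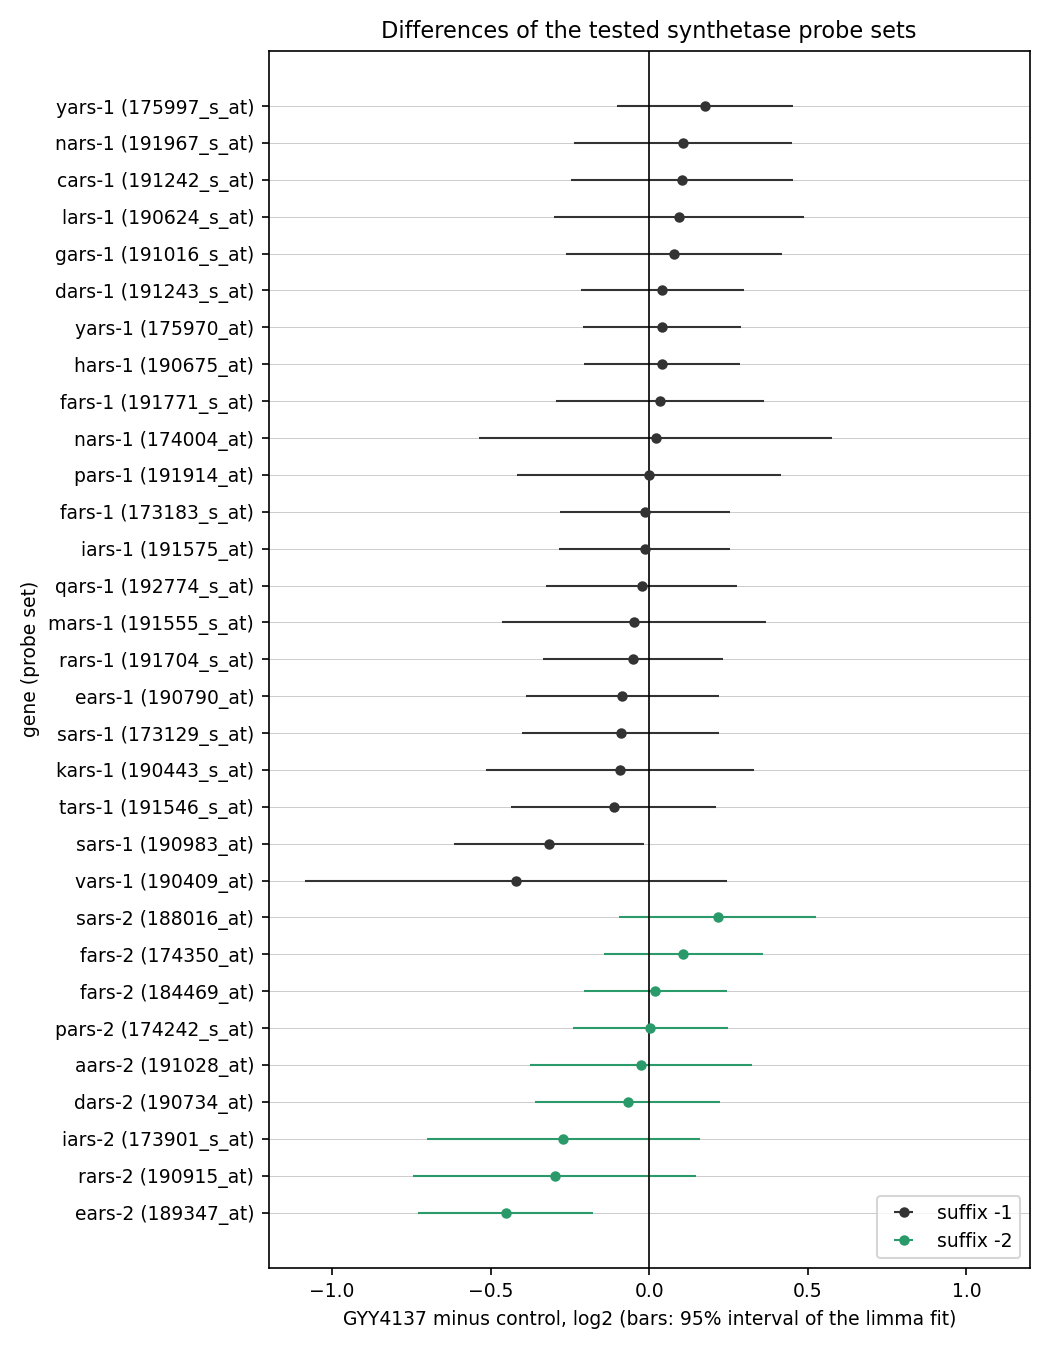
Difference between GYY4137 and control arrays on the log2 scale (x axis) for each of the 31 tested synthetase probe sets (rows), with the 95% interval of the limma fit from 3 arrays per group. The intervals of sars-1 (190983_at) and ears-2 lie below 0 without adjustment for multiple testing, and that of vars-1 is the widest of those drawn.

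The cytosolic enzymes of the amino acids that mammals gather in the multi-synthetase complex lay close to control. These are dars-1, ears-1, iars-1, kars-1, lars-1, mars-1, pars-1, qars-1 and rars-1; in mammals the glutamate and proline enzymes are a single protein, in the worm separate genes. Their 9 probe sets differed by -0.09 to 0.09, with a median of -0.02; without GYY4137 replicate 3 they differed by -0.26 to 0.17. The 13 tested -1 probe sets outside this set ran from -0.42, for the mitochondrial vars-1, to 0.18, with a median of 0.03. Without GYY4137 replicate 3 they ran from -0.25 (nars-1 174004_at) to 0.14 (yars-1 175997_s_at), a range similar to that of the 9.

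For iars-1, the isoleucine enzyme, the log2 values were 7.31, 7.51 and 7.25 on the GYY4137 arrays and 7.33, 7.34 and 7.44 on the control arrays, a difference of -0.01 ± 0.12 (SE, here and below from the limma fit with 3 arrays per group). For rars-1, the arginine enzyme, they were 7.65, 7.74 and 7.44 with GYY4137 and 7.66, 7.74 and 7.58 in controls (-0.05 ± 0.12). For dars-1, the aspartate enzyme, they were 8.13, 8.26 and 8.36 with GYY4137 and 8.15, 8.25 and 8.23 in controls (0.04 ± 0.11). In all of these the control values lay inside or within 0.1 of the span of the GYY4137 values.

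Qars-1, which charges tRNA with glutamine, read 6.76, 7.13 and 6.98 on the GYY4137 arrays and 6.98, 6.91 and 7.06 on the control arrays (-0.02 ± 0.13). Ears-1, the glutamate enzyme, read 7.72, 8.04 and 7.71 with GYY4137 and 8.01, 7.86 and 7.86 in controls (-0.08 ± 0.13). Pars-1, the proline enzyme, read 7.99, 7.89 and 7.52 with GYY4137 and 7.89, 8.00 and 7.51 in controls, with means equal to 2 decimals (7.80 ± 0.24 with GYY4137 and 7.80 ± 0.25 in controls, SD, n = 3 each); without GYY4137 replicate 3 the difference was 0.14. Lars-1, the leucine enzyme, was spread widely among controls, with 6.79, 6.84 and 6.58 with GYY4137 and 6.62, 6.95 and 6.36 in controls (0.09 ± 0.17).

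Kars-1 and mars-1, the lysine and methionine enzymes, were spread most within the GYY4137 group among these 9. Kars-1 read 7.92, 8.34 and 8.64 on GYY4137 replicates 1, 2 and 3 and 8.33, 8.40 and 8.44 on the control arrays (-0.09 ± 0.18). Mars-1 read 7.16, 7.48 and 7.81 with GYY4137 and 7.70, 7.44 and 7.46 in controls (-0.05 ± 0.18). For both, GYY4137 replicate 1 was the lowest of the 6 arrays and GYY4137 replicate 3 the highest, and the other GYY4137 array lay between. Without GYY4137 replicate 3 the difference was -0.26 for kars-1 and -0.21 for mars-1, neither passing (limma adjusted p = 0.328 and 0.442).

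**Figure D2:**
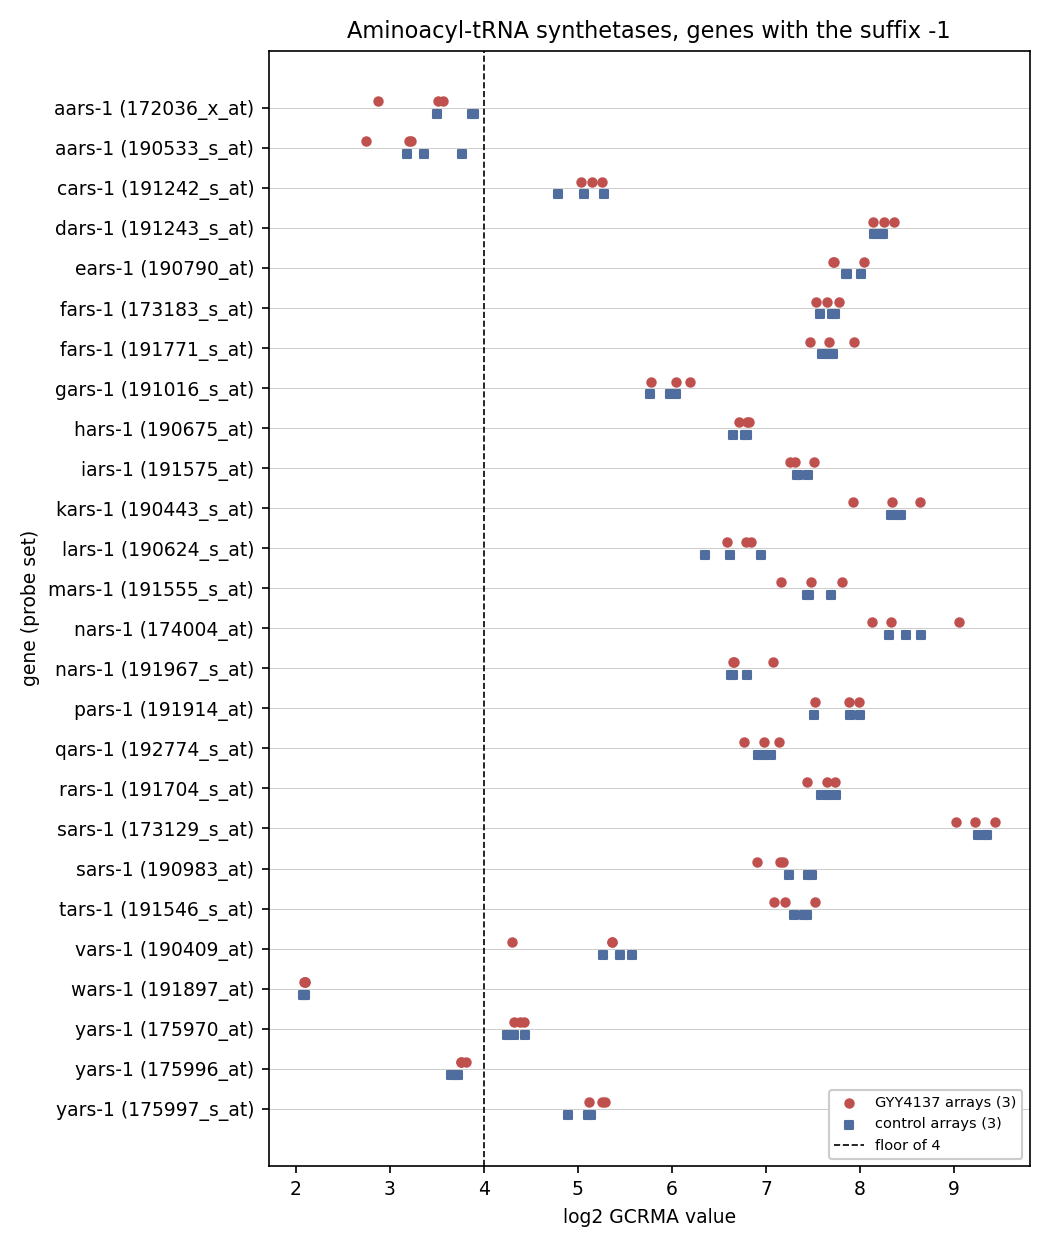
Log2 GCRMA value (x axis) of the 26 probe sets of the 20 genes with the suffix -1 (rows), with GYY4137 arrays as circles above and control arrays as squares, 3 each; the dashed line is the floor of 4. The GYY4137 and control points overlap in 21 of the 22 tested rows, sars-1 (190983_at) being the exception.

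Among the other cytosolic enzymes, nars-1, which charges tRNA with asparagine, showed the same ordering within the treated group. Its probe set 174004_at read 8.13, 8.33 and 9.05 with GYY4137 and 8.49, 8.64 and 8.30 in controls (0.02 ± 0.24), and 191967_s_at read 6.65, 6.66 and 7.08 with GYY4137 and 6.63, 6.65 and 6.80 in controls (0.11 ± 0.15). On both, GYY4137 replicate 3 was the highest of the 6 arrays. Without it the differences were -0.25 and -0.04, neither passing (limma adjusted p = 0.326 and 0.890).

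Tars-1, the threonine enzyme, read 7.08, 7.21 and 7.52 with GYY4137 and 7.44, 7.30 and 7.41 in controls (-0.11 ± 0.14, and -0.24 without GYY4137 replicate 3). Gars-1, the glycine enzyme, read 5.78, 6.05 and 6.20 with GYY4137 and 6.04, 5.76 and 5.98 in controls (0.08 ± 0.15). Hars-1, the histidine enzyme, read 6.72, 6.82 and 6.80 with GYY4137 and 6.80, 6.65 and 6.77 in controls (0.04 ± 0.11). Only for tars-1 among these were 2 of the 3 GYY4137 arrays below all 3 controls.

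Cars-1, the cysteine enzyme, charges tRNA with a sulfur amino acid, as does mars-1. It read 5.15, 5.03 and 5.25 with GYY4137 and 5.07, 4.78 and 5.28 in controls, a difference of 0.10 ± 0.15 (95% interval -0.25 to 0.45). The interval of mars-1 was -0.47 to 0.37. For neither of these enzymes was a difference from control detected after exposure to the H2S donor. With 3 arrays per group, differences anywhere within these intervals remain compatible with the data.

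Fars-1 encodes the catalytic alpha subunit of the cytosolic phenylalanine enzyme. Its probe sets differed by -0.01 ± 0.11 (173183_s_at) and 0.03 ± 0.14 (191771_s_at). The beta subunit, fars-3, which the naming pattern leaves out, differed by 0.12 ± 0.13 and 0.17 ± 0.16 on its 2 probe sets. On 191771_s_at and on both fars-3 probe sets GYY4137 replicate 3 was the highest of the 6 arrays, at 7.93 for fars-1. Without that array the difference was -0.09 on 191771_s_at, and 0.06 and 0.0044 on the fars-3 probe sets.

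The tyrosine gene yars-1 had the highest -1 difference, on probe set 175997_s_at, with 5.26, 5.12 and 5.29 with GYY4137 and 5.11, 4.89 and 5.14 in controls (0.18 ± 0.12, limma adjusted p = 0.435). Its other tested probe set, 175970_at, lay near the floor and differed by 0.04 ± 0.11. A further yars-1 probe set, 175996_at, stayed under the floor and was not tested.

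Sars-1, the cytosolic serine enzyme, gave different readings on its 2 probe sets. On 190983_at it read 7.18, 7.15 and 6.91 with GYY4137 and 7.49, 7.44 and 7.25 in controls. All 3 GYY4137 arrays lay below all 3 controls here, by -0.32 ± 0.13 (limma adjusted p = 0.264, 95% interval -0.61 to -0.02). On 173129_s_at, a probe set that can bind related transcripts, it read 9.44, 9.23 and 9.02 with GYY4137 and 9.35, 9.34 and 9.26 in controls, and the groups overlapped (-0.09 ± 0.13). Without GYY4137 replicate 3 the difference was -0.23 on 190983_at and 0.02 on 173129_s_at.

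The alanine enzyme of the cytosol, aars-2, read 7.39, 7.16 and 7.15 with GYY4137 and 7.29, 7.01 and 7.48 in controls on 191028_at (-0.03 ± 0.15). Its other probe set, 175645_s_at, stayed under the floor on all 6 arrays. Glp-4, the cytosolic valine enzyme, read 6.15, 6.23 and 6.20 with GYY4137 and 6.54, 6.50 and 6.38 in controls, without overlap, and did not pass (-0.28 ± 0.10, limma adjusted p = 0.235). The cytosolic tryptophan gene wars-1 read between 2.08 and 2.10 on all 6 arrays, under the floor on each.

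The mitochondrial enzymes serve the small set of proteins that mitochondria make themselves, which are parts of the respiratory chain. Ears-2, which charges mitochondrial tRNA with glutamate, had the largest -2 difference and the smallest p of the 31 probe sets. It read 4.21, 4.14 and 4.18 with GYY4137 and 4.65, 4.77 and 4.46 in controls. All 3 GYY4137 arrays lay below all 3 controls, and the treated arrays spanned less than 0.1. The difference was -0.45 ± 0.12, a ratio of 0.730 (unadjusted p = 0.00583, limma adjusted p = 0.128), so it did not pass over all genes.

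With single arrays left out the ears-2 difference ran from -0.54 without control replicate 3 to -0.38 without control replicate 2. The adjusted p was 0.0721 without GYY4137 replicate 3 and between 0.173 and 0.392 without any of the other arrays. With arrays weighted by how closely they match their group, ears-2 passed (-0.49, limma adjusted p = 0.00423). Under these weights 1389 of all 8053 tested probe sets passed, in place of 121. The levels lay just above the floor, so the size is uncertain. Its cytosolic counterpart ears-1 differed by -0.08; whether the pair differ from each other in response was not tested. Body wall muscle markers had a median difference of -0.46 over 11 tested probe sets, all of them below control. These probe sets cover 5 genes, some of them read more than once. Of the 11 probe sets 1 passed, beside 1.50% of all tested probe sets. Among them 8 had an unadjusted p under 0.05, beside 17.7%, and 9 did not overlap between groups, beside 29.0%. Oocyte and eggshell markers had a median of -0.31 over 8, all of them below control, of which 0 passed. Here 3 (37.5%) had an unadjusted p under 0.05, beside 17.7%, and 4 did not overlap between groups, beside 29.0%. Germline markers lay below control on 12 of 13 tested probe sets (median -0.13) and pharynx markers on 4 of 4 (median -0.17). In both lists 0 passed, and 4601 of all 8053 tested probe sets lay below control. The remaining marker lists held probe sets on both sides of control. Among the marker lists sperm had the highest median, 0.58 over 4 tested probe sets. Of those 0 passed and 3 (75%) had an unadjusted p under 0.05. The part of any of these lists in the ears-2 difference was not tested.

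**Figure D3:**
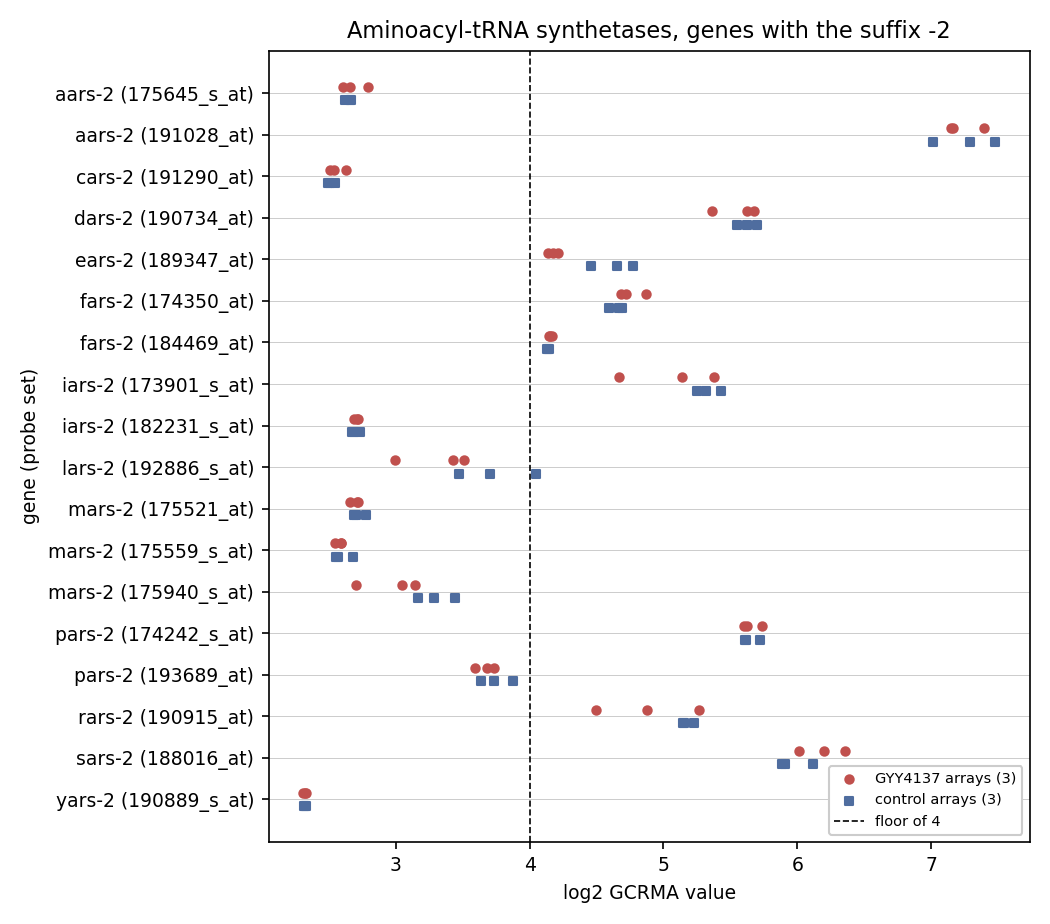
Log2 GCRMA value (x axis) of the 18 probe sets of the 12 genes with the suffix -2 (rows), with GYY4137 arrays as circles above and control arrays as squares, 3 each; the dashed line is the floor of 4. For ears-2 the circles lie between 4.14 and 4.21 and the squares between 4.46 and 4.77.

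Vars-1, rars-2 and iars-2, for mitochondrial valine, arginine and isoleucine, had their lowest value on the same treated array. Vars-1, which carries the suffix -1, read 5.36, 5.36 and 4.30 with GYY4137 and 5.45, 5.58 and 5.26 in controls (-0.42 ± 0.28, limma adjusted p = 0.436). Rars-2 read 5.26, 4.88 and 4.49 with GYY4137 and 5.23, 5.16 and 5.15 in controls (-0.30 ± 0.19, adjusted p = 0.413). Iars-2 read 5.14, 5.37 and 4.67 with GYY4137 and 5.32, 5.25 and 5.43 in controls on 173901_s_at (-0.27 ± 0.18, adjusted p = 0.436).

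For each of these 3 genes GYY4137 replicate 3 was the lowest array, at -1.06, -0.58 and -0.59 relative to the mean of GYY4137 replicates 1 and 2. With that array left out, GYY4137 minus control was -0.07 for vars-1, -0.11 for rars-2 and -0.08 for iars-2. The difference of ears-2 was -0.45 with and without that array. Relative to the mean of the other treated arrays, GYY4137 replicate 3 had a median of 0.48 over the 4 tested probe sets of sperm markers. The median was 0.45 over 5 for hypodermis and cuticle and 0.35 over 4 for pharynx. It was -0.14 over 8 for oocyte and eggshell and -0.10 over 8 for yolk, and the other marker lists lay between. The part of these lists in the low values was not tested.

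**Figure D4:**
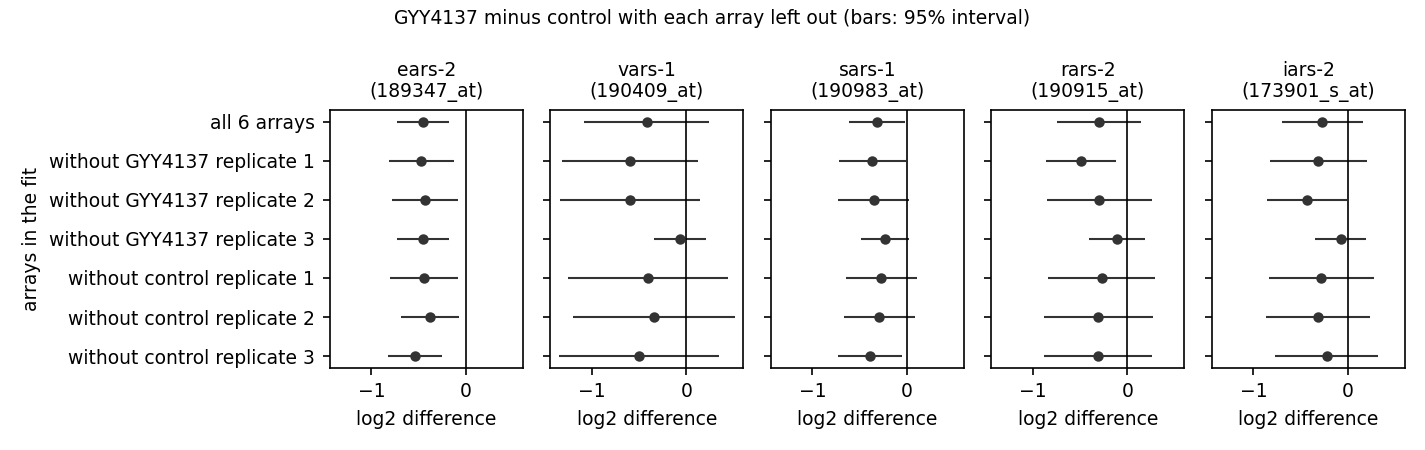
Difference between GYY4137 and control arrays on the log2 scale (x axes), with 95% intervals, for ears-2, vars-1, sars-1, rars-2 and iars-2 (panels, in this order), with all 6 arrays and with each array left out (rows). The ears-2 points stay between -0.54 and -0.38, while those of vars-1, rars-2 and iars-2 come to -0.07, -0.11 and -0.08 without GYY4137 replicate 3.

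Sars-2, for serine, had the highest -2 difference, with 6.20, 6.01 and 6.36 with GYY4137 and 6.12, 5.91 and 5.88 in controls (0.22 ± 0.13, limma adjusted p = 0.401). Dars-2, for aspartate, read 5.68, 5.63 and 5.36 with GYY4137 and 5.63, 5.55 and 5.69 in controls (-0.07 ± 0.12). Pars-2, for proline, read 5.74, 5.60 and 5.62 with GYY4137 and 5.72, 5.61 and 5.62 in controls on 174242_s_at. The groups overlapped for all of these.

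Fars-2, for phenylalanine, differed by 0.11 ± 0.11 on 174350_at and 0.02 ± 0.10 on 184469_at. On 184469_at the groups did not overlap, with 4.15, 4.17 and 4.15 with GYY4137 and 4.13, 4.13 and 4.14 in controls. All of these values lay close to the floor, and this separation of 0.02 is one of the 3 counted above.

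The 13 probe sets that were not tested gave values between 2.08 and 4.05. They are the only ones for aars-1, cars-2, lars-2, mars-2, wars-1 and yars-2. Lars-2, for mitochondrial leucine, read 3.43, 3.51 and 3.00 with GYY4137 and 4.05, 3.71 and 3.48 in controls. Aars-1, for mitochondrial alanine, read 3.56, 3.51 and 2.88 with GYY4137 and 3.89, 3.50 and 3.88 in controls on 172036_x_at. On mars-2 175940_s_at, for mitochondrial methionine, the values were 3.14, 3.05 and 2.71 with GYY4137 and 3.44, 3.29 and 3.17 in controls. In these 3 GYY4137 replicate 3 was again the lowest array, and every value except lars-2 on control replicate 1 lay under the floor, so no size is given.

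**Figure D5:**
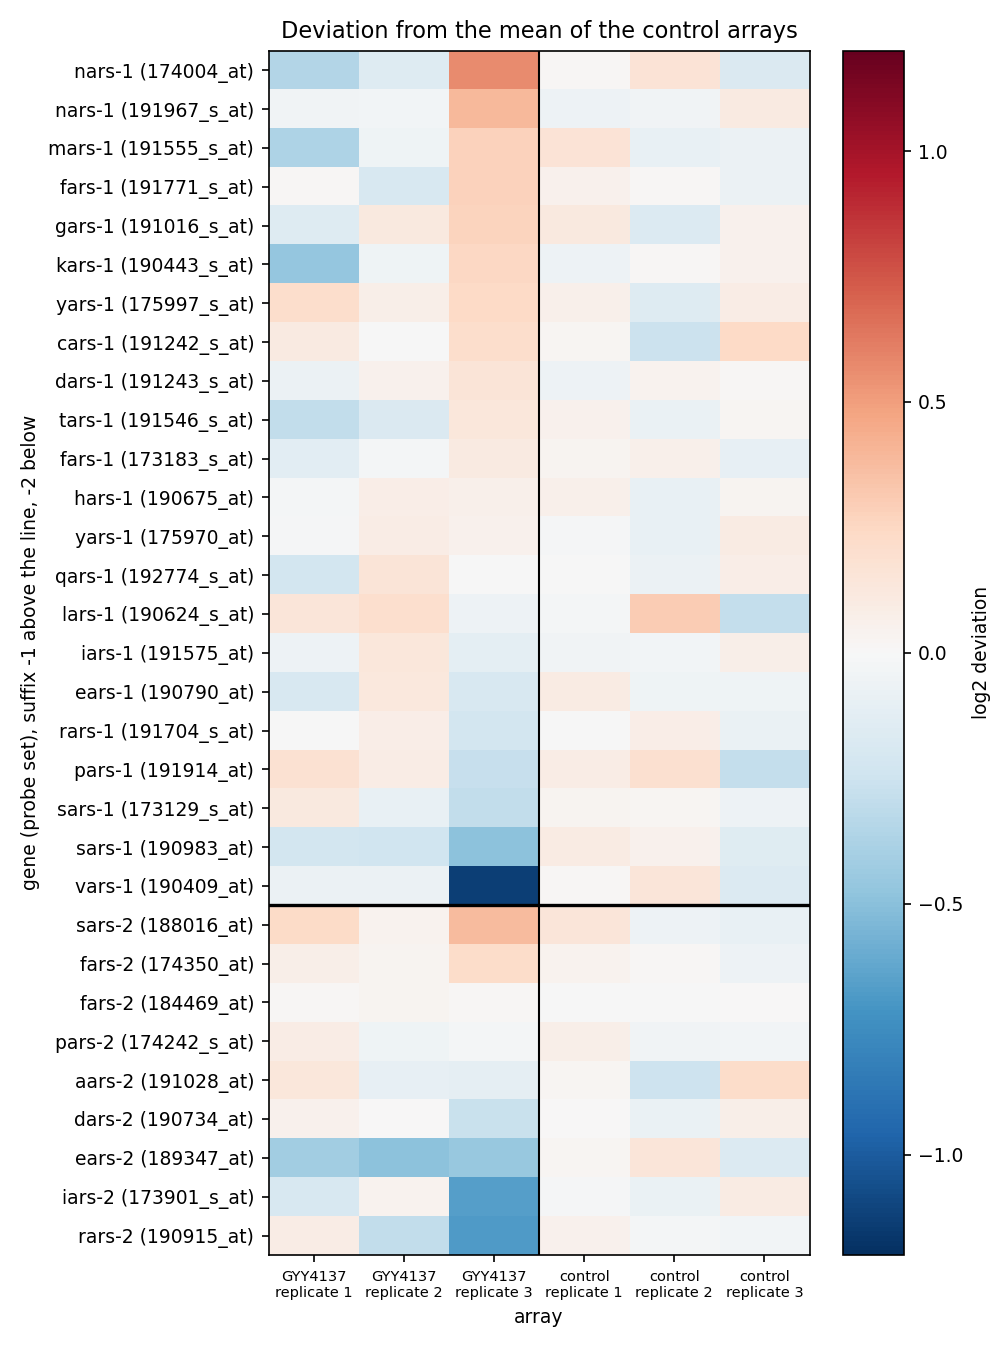
Log2 deviation of each tested synthetase probe set (rows, suffix -1 above the line and -2 below) from the mean of the control arrays, on each of the 6 arrays (columns); red is higher and blue lower. Rows are ordered by GYY4137 replicate 3, where nars-1 174004_at is at 0.57 and vars-1 at -1.13.

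GYY4137 replicate 3 was the highest of the 6 arrays for 10 of the 22 tested -1 probe sets and the lowest for 6. It was the highest for 2 and the lowest for 3 of the 9 tested -2 probe sets. Over all tested probe sets it was the highest in 28.4% and the lowest in 38.1%. The class II enzymes with the suffix -1 had a median deviation from the control mean of -0.10, -0.04 and 0.14 on GYY4137 replicates 1, 2 and 3, and the class I enzymes of -0.04, 0.08 and -0.03. The SD over the GYY4137 arrays exceeded that over the control arrays for 23 of the 31 probe sets (74.2%), beside 68.0% of all tested probe sets.

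The genes that act beside the synthetases also gave no call. Of 19 tested probe sets of cytosolic translation partners 0 passed limma's test, with a median of 0.08; 3 had an unadjusted p under 0.05 (15.8%, beside 17.7% of all tested probe sets). This list also holds the synthetase genes glp-4 and fars-3, and glp-4 gave 1 of those 3. The smallest p among them belonged to erfa-1, the release factor that reads stop codons, at -0.43 ± 0.15 on 193710_at (adjusted p = 0.219) and -0.19 ± 0.13 on 194225_x_at, the second being -0.08 without GYY4137 replicate 3. Eef-1B.2, part of the exchange factor that recharges the elongation factor, differed by 0.27 ± 0.11 (adjusted p = 0.276).

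Of 5 probe sets of mitochondrial translation partners 0 passed (0 at an unadjusted p under 0.05), with a median of -0.05. Tufm-2, a mitochondrial elongation factor Tu, read 6.03, 5.99 and 5.19 with GYY4137 and 6.26, 6.13 and 6.15 in controls (-0.44 ± 0.23, limma adjusted p = 0.338). Gfm-1, the mitochondrial elongation factor G, read 6.81, 6.56 and 6.16 with GYY4137 and 6.91, 6.92 and 6.81 in controls (-0.37 ± 0.17, adjusted p = 0.311). GYY4137 replicate 3 was the lowest of the 6 arrays on 4 of these 5 probe sets, beside 38.1% of all tested probe sets. On the 61 tested probe sets of mitochondrial ribosomal proteins this array was the lowest on 13 and the highest on 28. Without GYY4137 replicate 3 the difference was -0.17 for tufm-2 and -0.19 for gfm-1.

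Among the amino acid sensing genes 0 of 11 tested probe sets passed, with a median of -0.19; 3 had an unadjusted p under 0.05 (27.3%, beside 17.7% of all tested probe sets). Gcn-2, the kinase that senses uncharged tRNA, read 6.12, 5.98 and 5.91 with GYY4137 and 6.28, 6.24 and 6.42 in controls (-0.31 ± 0.11, limma adjusted p = 0.235). Atf-4, the transcription factor translated more when that kinase is active, read 7.54, 7.20 and 7.25 with GYY4137 and 6.99, 7.16 and 6.91 in controls (0.31 ± 0.14, adjusted p = 0.297). Of the 11, all GYY4137 arrays lay below all controls on 3, for gcn-2 and on both let-363 probe sets given below. They lay above all controls on 1, for atf-4. Over all tested probe sets the groups did not overlap in 29.0%. Let-363, the worm TOR kinase, read 4.00, 4.46 and 3.53 with GYY4137 and 4.88, 4.76 and 4.80 in controls on 188271_at (-0.82 ± 0.22, adjusted p = 0.140, and -0.59 without GYY4137 replicate 3). On this probe set 2 of the 3 GYY4137 arrays lay under the floor, so the size is uncertain. Its other named probe set, 174977_at, differed by -0.19 ± 0.11. Daf-15, the worm partner Raptor of that kinase, differed by -0.46 ± 0.17 on 174605_at (adjusted p = 0.238) and -0.50 ± 0.33 on 189352_s_at, where the difference was -0.07 without GYY4137 replicate 3.

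The ribosomal proteins, the other large gene group of translation, had no call either. Of 108 tested probe sets for cytosolic ribosomal proteins 0 passed (0 at an unadjusted p under 0.05), with a median of 0.04. Of 61 for mitochondrial ribosomal proteins 0 passed (3 at an unadjusted p under 0.05), with a median of 0.09. Cytosolic ribosomal protein probe sets lay above control in 80 of 108 (74.1%) and mitochondrial ones in 39 of 61 (63.9%), beside 42.9% of all tested probe sets.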

How the data were processed

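The deposited values are 1 per probe set and array, made with GCRMA per the submitters' processing notes, and were read as log2 because they run from 1.88 to 13.3. Neither a version nor a further filter is named in the labels. The 77 control probe sets were left out, and no further normalization was applied. Symbols were those of the platform's annotation, brought up to date with RefSeq (WBcel235), from which biotypes were also read. The difference, GYY4137 minus control, came from limma 3.58.1 (R 4.3.3; lmFit, then eBayes with no trend, two-sided) fitted over the 8053 tested probe sets, with Benjamini-Hochberg adjustment over all of them and a threshold of 0.05. The procedure was tested on simulated data.

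The members, lists and tests were chosen with earlier results of these data known. Every member gene was to be named, and up to 3 genes per related list with the smallest p; atf-4 and fars-3 were named after their values were seen. Alternatives were no filter, a floor of 6, quantile normalization, median centring, array weights, an intensity trend, a replicate block, leaving out each array, a threshold of 0.1, means per gene and, chosen after seeing the data, moving the alanine and valine genes between groups. Protein features and compartments from a protein table were planned and not run. Different probe sets were not compared in level. Of the 31 tested, 16 end in _s_at or _x_at and may also read transcripts of close relatives. The number of arrays limits the precision. The labels do not say whether replicates were grown apart, so p-values cover only the spread between these arrays, which may be technical.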

Additional observations from a re-analysis of the deposited data

How the results depend on the processing

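The count of called synthetases stayed at 0 for both suffixes with no filter, a floor of 6, quantile normalization, median centring, an intensity trend, a threshold of 0.1, the replicate block and each array left out. With array weights it was 1 for each suffix, ears-2 and sars-1 on 190983_at (-0.29, limma adjusted p = 0.0453); GYY4137 replicate 3 then had a weight of 0.143. The median over -1 probe sets was 0.065 under median centring and ran from -0.055 to 0.069 with an array left out. The median over -2 probe sets was 0.095 with a floor of 6, which kept 2 of them, and 0.047 under median centring, and ran from -0.105 to 0.018 with an array left out. Moving the alanine and valine genes gave medians of -0.01 and -0.07. Of 392 member differences recomputed under alternatives 55 changed sign, none of them past 0.11 in size at the main settings. Median centring moved the median of all tested probe sets to 0.03. Over all genes the calls were 33 with no filter, 80 with a floor of 6, 1389 with array weights and 267 at a threshold of 0.1. Leaving out control replicate 1, 2 or 3 gave 12, 21 and 19, and leaving out GYY4137 replicate 1, 2 or 3 gave 63, 27 and 381. Same-numbered arrays had correlations of deviations of 0.11, -0.02 and 0.05, so the numbers were not taken to pair the arrays, and GYY4137 replicate 2 correlated best with control replicate 1. The replicate block gave 73 calls over all genes in place of 121. No synthetase below the floor on most arrays has a firm level.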
